A study of Mus musculus with 12 samples.

Results

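The genes described here encode the mitochondrial respiratory chain (complexes I to IV) and the ATP synthase (complex V), in peritoneal macrophages (Mϕ) sorted during the resolution of a sterile peritonitis. They were taken by their symbols, as the nuclear genes of complex I subunits and assembly factors (Nduf), succinate dehydrogenase (Sdh), complex III (Uqcr), cytochrome c oxidase (Cox5 to Cox8, since the symbols of the Cox4 genes are not matched) and ATP synthase (Atp5), together with the protein-coding genes of the mitochondrial genome. Of the 104 listed genes that match, 93 had a mean of at least 3 normalized counts in F4/80lo Mϕ and 91 in F4/80hi Mϕ, out of 10718 and 10499 genes at that minimum. All 91 were members in both subpopulations, and the 2 members of F4/80lo Mϕ alone were Ndufaf1 and Cox6b2. The 11 genes under the minimum in both were not tested, and they included 5 genes of the mitochondrial genome (mt-Atp6, mt-Atp8, mt-Co2, mt-Co3 and mt-Nd4l), the subunit c gene Atp5g2 and isoforms such as Cox8b.

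Female C57/BL6 mice of 8 to 12 weeks received 5 mg/kg zymosan into the peritoneum, which carries yeast wall glucans and starts a self-resolving inflammation. From day 1 on they were given daily 25 mg/kg of CIII, an inhibitor of the prostaglandin E2 forming enzyme mPGES-1, or the vehicle (VEH; 1% Tween-80, 0.5% carboxymethyl cellulose and 0.9% NaCl). F4/80lo Mϕ (CD45+, CD11b+, F4/80 and MerTK low, Ly6G-, MHCII+) and F4/80hi Mϕ (CD45+, CD11b+, F4/80 and MerTK high) were sorted at day 6. There were 3 libraries per treatment and subpopulation. All mice carried unmodified genomes as far as the labels tell and all received zymosan, so no uninflamed Mϕ were compared. The sources do not say whether each library came from a mouse of its own, and the p-values measure the spread between these libraries only. Since the libraries are bulk samples, fewer cells of a type and less RNA per cell cannot be told apart.

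Complex I passes electrons from NADH, and complex II from succinate, to ubiquinone. Complex III hands them on to cytochrome c and complex IV to oxygen, and the protons pumped on the way drive the ATP synthase. Complex II is made from nuclear genes alone, whereas the other complexes mix many nuclear subunits with a few that the mitochondrial genome encodes. In Mϕ, oxidative metabolism is known to differ with the activation state, and resident peritoneal Mϕ are known for their reliance on it.

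The promoters of nuclear members are shown for 4 genes, since transcription factors that are known to act on many of these genes at once (NRF1, ETS family members such as GABP, YY1 and the estrogen-related receptors, ERR) bind close to their starts. RefSeq windows on GRCm38.p6, from 250 bases before to 50 bases after a start, were matched for 73 of the 85 nuclear members. Among the 12 others were Atp5mpl, Sdhc, Uqcrb, Cox6c and Ndufs1, which are described here by their levels. The windows of Atp5k, Uqcr11 and Cox6b1 belong to genes that were lower with CIII in F4/80hi Mϕ, and the window of Sdha to one of the few that were higher. Capitals mark matches on either strand to the letters GCGCATGCG or the shorter letters TGCGCA for NRF1, which can overlap, to CCGGAAG for the ETS family, to ATGGCGGC for YY1 and to AAGGTCA for ERR.
Atp5k (chr5:108434350-108434649, minus strand): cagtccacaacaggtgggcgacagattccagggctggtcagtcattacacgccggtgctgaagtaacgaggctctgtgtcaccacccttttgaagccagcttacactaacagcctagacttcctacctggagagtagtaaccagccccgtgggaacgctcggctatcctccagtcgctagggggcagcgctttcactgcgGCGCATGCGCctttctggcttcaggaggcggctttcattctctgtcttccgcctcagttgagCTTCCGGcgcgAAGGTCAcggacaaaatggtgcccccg
Uqcr11 (chr10:80406772-80407071, minus strand): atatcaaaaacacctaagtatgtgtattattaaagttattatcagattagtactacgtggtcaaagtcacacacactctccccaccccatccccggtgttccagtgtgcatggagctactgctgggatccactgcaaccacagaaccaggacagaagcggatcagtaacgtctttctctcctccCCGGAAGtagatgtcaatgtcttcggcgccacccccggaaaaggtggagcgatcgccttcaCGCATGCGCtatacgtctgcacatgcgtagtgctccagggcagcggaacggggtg
Cox6b1 (chr7:30626065-30626364, minus strand): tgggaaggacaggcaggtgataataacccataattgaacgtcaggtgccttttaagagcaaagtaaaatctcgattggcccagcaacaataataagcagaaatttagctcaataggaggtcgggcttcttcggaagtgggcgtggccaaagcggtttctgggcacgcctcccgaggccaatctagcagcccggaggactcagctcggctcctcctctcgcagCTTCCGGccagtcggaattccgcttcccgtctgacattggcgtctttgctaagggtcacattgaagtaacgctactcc
Sdha (chr13:74350191-74350490, minus strand): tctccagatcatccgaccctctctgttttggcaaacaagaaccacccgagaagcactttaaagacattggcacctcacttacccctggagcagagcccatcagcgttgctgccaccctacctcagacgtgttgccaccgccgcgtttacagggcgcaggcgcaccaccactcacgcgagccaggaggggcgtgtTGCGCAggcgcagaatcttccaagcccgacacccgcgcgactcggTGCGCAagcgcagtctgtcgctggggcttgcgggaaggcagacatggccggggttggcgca

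The Atp5k window held 2 overlapping NRF1 matches that begin 50 and 49 bases before the start, and an ETS and an ERR match after it. Uqcr11 held an ETS match 66 bases and an NRF1 match 5 bases before the start, Cox6b1 an ETS match at 28 bases, and Sdha the shorter NRF1 letters, at 56 and 11 bases. All windows shown thus held a match, whereas those of Uqcr10, Cox7b, Ndufa12 and Ndufc1, also lower with CIII in F4/80hi Mϕ, held none. Over the 78 windows of nuclear members, 11.5% held the longer NRF1 letters against 1.75% of all 32851 windows, 24.4% the shorter NRF1 letters against 7.76%, 23.1% the ETS letters against 8.86%, 10.3% the YY1 letters against 2.24% and 10.3% the ERR letters against 4.72%. All members are protein-coding. Of the windows of protein-coding genes, 2.35%, 9.74%, 11.6%, 3.02% and 4.08% held these letters, in the same order. At least 1 of the matches was present in 53.8% of the windows of nuclear members, against 21.5% of all windows and 25.5% of those of protein-coding genes. In F4/80hi Mϕ the median log2 fold change (CIII minus VEH) was -0.94 over 39 members with a match in any of their windows and -1.0 over 32 without one. It was -1.31 over 17 members with the ETS letters and -0.92 over 54 without, and -1.37 over 8 with the ERR letters and -0.91 over 63 without. For the shorter NRF1 letters it was -0.85 over 18 and -1.03 over 53, for the longer ones -1.03 over 9 and -0.96 over 62, and for YY1 -0.80 over 7 and -1.0 over 64. These medians are a description and were not tested. These matches are letters in a window and not sites of binding.

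The 12 libraries held 426624 to 3389448 reads on genes. A level is given in normalized counts, which are UMI-collapsed reads divided by a size factor per library, and a difference is the log2 fold change (CIII minus VEH) of the normalized count plus 1, tested with limma over all genes of a subpopulation. Single genes are also given an exact permutation p (two-sided), which cannot be under 0.1 with 3 libraries against 3. The general Mϕ markers Adgre1, Mertk, Csf1r, Lyz2 and Cd68 were read in both subpopulations, with a summed level of 6177 to 20562 reads per 1000000. The libraries with replicate number 3 stood apart. In the F4/80hi libraries numbered 3, the 4 markers of resident Mϕ (Icam2, Gata6, Timd4 and Alox15) summed to 128 reads per 1000000 with VEH and 240 with CIII, within the 104 to 605 of the F4/80lo libraries and under the 1009 to 2225 of the other F4/80hi libraries. The ribosomal RNA-like transcript Gm42418 took 2.65% to 14.3% of the reads in the libraries numbered 3 and at most 0.579% elsewhere. Medians and counts of members are therefore also given without them.

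Nuclear members were lower with CIII across the complexes in F4/80hi Mϕ, and no member passed an adjusted p of 0.05 in limma's test. Of the 83 nuclear members, 79 had a log2 fold change below 0, where 46.5% of all genes did, and their median was -0.94, a CIII level of 0.52 times that with VEH. The median of all genes tested was 0.05. An unadjusted p under 0.05 was reached by 37 members in limma's test, each lower with CIII, which is 40.7% of the 91 members against 2.65% of all genes tested. By coding length the share of nuclear members was 66.7% up to 300 bases and 46.2% from 301 to 600 bases, against 17.9% and 9.82% of other protein-coding genes of these lengths. In 39 members all 3 CIII libraries lay below all 3 VEH libraries (42.9%, against 5.76% of all genes). The smallest adjusted p of a member was 0.992 in limma's test. Once the replicate number entered limma's fit as a block, 57 members were lower at an unadjusted p under 0.05 (62.6%, against 6.24% of all genes) and the smallest adjusted p was 0.155. DESeq2 with the replicate block gave 14 members an adjusted p under 0.05, each lower with CIII (15.4%, against 0.762% of all genes). By complex these were 2 subunits and 1 assembly factor of complex I, 2 genes of complex III, 3 of complex IV and 6 of the ATP synthase. Without the block, edgeR had 37 and DESeq2 43 members at an unadjusted p under 0.05 (40.7% and 47.3%, against 3.89% and 4.03% of all genes) and both had 0 at an adjusted p under 0.05.

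The share of all reads that fell on the nuclear members of F4/80hi Mϕ was 1.76%, 1.02% and 1.13% in the VEH libraries numbered 1, 2 and 3 and 0.908%, 0.750% and 0.534% in the CIII libraries. All 3 CIII libraries lay below all 3 VEH libraries, and the highest share, in VEH library 1, stood clear of the other two. Within the numbers 1, 2 and 3, the median log2 fold change of the nuclear members was -0.97, -0.60 and -1.34. In the libraries numbered 1 and 2 alone, 76 of the 83 were lower, with a median of -0.80 (48.3% of all genes were lower), and 16 members had an unadjusted limma p under 0.05 (17.6%, against 6.97% of all genes, either direction). The medians by complex were then -0.70 for complex I, -0.56 for complex II, -0.96 for complex III, -0.82 for complex IV and -0.97 for the ATP synthase. The count also depended on single libraries: it was 10 without VEH replicate 1 (10.99%, against 2.22% of all genes), 16 without CIII replicate 3 (17.6%, against 2.63%) and 21 without CIII replicate 2 (23.1%, against 2.57%). It was 28 without VEH replicate 3 (30.8%, against 9.88%) and 45 without VEH replicate 2 (49.5%, against 4.35%).

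**Figure D1:**
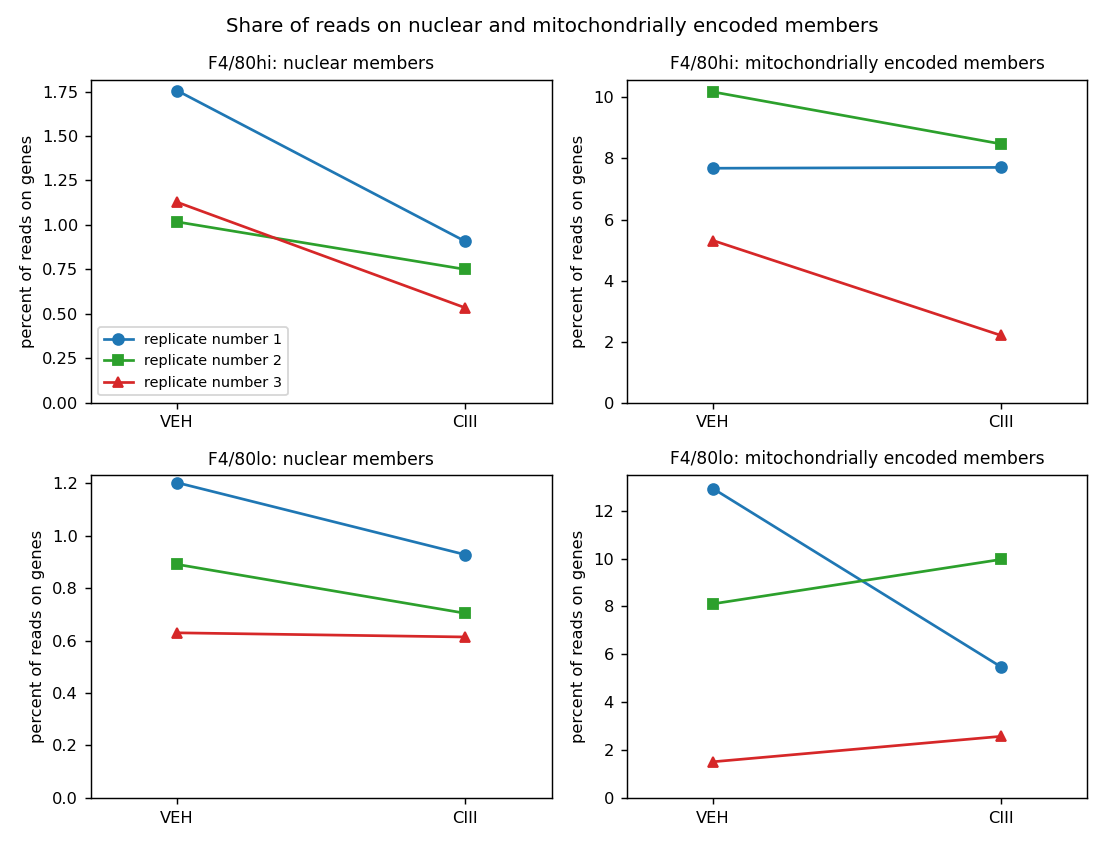
Percent of reads on genes that fell on nuclear members (left) and on members of the mitochondrial genome (right), for F4/80hi (top) and F4/80lo Mϕ (bottom); a line joins the VEH and the CIII library with the same replicate number. The nuclear share of F4/80hi Mϕ lay at 1.02% to 1.76% with VEH and 0.534% to 0.908% with CIII, whereas the mitochondrially encoded share moved in different directions between numbers.

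Of the 37 complex I subunits in F4/80hi Mϕ, 36 were lower with CIII (median log2 fold change -0.91) and 14 had an unadjusted limma p under 0.05. Ndufc1, a small accessory subunit of the membrane arm (ENSMUSG00000037152, chromosome 3 from 51404677 to 51408988), had 316, 148 and 196 normalized counts in the VEH libraries and 96.7, 63.7 and 50.3 in the CIII libraries. The CIII libraries did not reach the lowest VEH library, with a log2 fold change of -1.61 (SE 0.40, limma p = 0.00296, exact permutation p = 0.1). Ndufa5, an accessory subunit of the matrix arm, had 344, 189 and 134 normalized counts in the VEH libraries and 108, 92.5 and 51.4 in the CIII libraries. Again the groups did not overlap, with a log2 fold change of -1.35 (SE 0.45, limma p = 0.0138, exact permutation p = 0.1), but CIII library 1 and VEH library 3 lay close. Ndufa12, an accessory subunit whose 3′ end shares 53.5% of its 75-base words with an annotated copy, had 79.8, 54.9 and 72.3 with VEH and 31.8, 16.8 and 35.0 with CIII and a log2 fold change of -1.33 (SE 0.41, limma p = 0.00991, exact permutation p = 0.1). The accessory subunit Ndufb8 had 278, 223 and 313 with VEH and 148, 202 and 118 with CIII, a log2 fold change of -0.82 (SE 0.34, limma p = 0.0380, exact permutation p = 0.1).

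The single complex I subunit with a higher level was Ndufs1, which carries iron-sulfur clusters of the electron path. Its levels were 90.4, 105 and 48.2 with VEH and 128, 108 and 87.5 with CIII, and the groups overlapped, with a log2 fold change of 0.46 (SE 0.39, limma p = 0.261, exact permutation p = 0.3). The assembly factors of complex I were measured at low levels, from a mean of 6.66 to 56.6 normalized counts, and 5 of the 7 were lower (median log2 fold change -0.43). Ndufaf8, chosen after its values were seen as the only assembly factor with an unadjusted p under 0.05, had 90.4, 61.4 and 101 normalized counts in the VEH libraries and 29.6, 25.2 and 32.3 in the CIII libraries. Its groups were well apart, with a log2 fold change of -1.48 (SE 0.36, limma p = 0.00260, exact permutation p = 0.1). Ndufaf6 and Ndufaf7 were higher, with log2 fold changes of 0.86 and 0.07, at fewer than 17 normalized counts in each library.

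Succinate dehydrogenase, which belongs both to the tricarboxylic acid cycle and to the respiratory chain, was split between its subunits. The membrane anchor Sdhc (ENSMUSG00000058076, chromosome 1 from 171127165 to 171150603) had 94.4, 64.0 and 114 normalized counts in the VEH libraries and 41.1, 43.3 and 38.8 in the CIII libraries. The 3 CIII libraries lay within 5 normalized counts of each other and below each VEH library, with a log2 fold change of -1.09 (SE 0.36, limma p = 0.0131, exact permutation p = 0.1). The iron-sulfur subunit Sdhb had 133, 127 and 195 with VEH and 93.1, 90.1 and 78.8 with CIII, also without overlap, and a log2 fold change of -0.76 (SE 0.32, limma p = 0.0425, exact permutation p = 0.1). The catalytic flavoprotein Sdha, however, had 206, 146 and 122 with VEH and 231, 189 and 183 with CIII. Its CIII levels ran from within the VEH range to above it, with a log2 fold change of 0.37 (SE 0.33, limma p = 0.292, exact permutation p = 0.3). The other anchor, Sdhd, ranged from 2.10 to 61.2 normalized counts, with the low values in the libraries numbered 3 of both treatments, and a log2 fold change of -0.33 (SE 1.25, limma p = 0.797, exact permutation p = 0.9).

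All 8 genes of complex III were lower with CIII in F4/80hi Mϕ, with a median log2 fold change of -1.10 and an unadjusted limma p under 0.05 in 5. Uqcr10, a small subunit of the membrane part (ENSMUSG00000059534, chromosome 11 from 4701973 to 4704342), had 156, 107 and 91.2 normalized counts in the VEH libraries and 53.4, 28.8 and 52.5 in the CIII libraries. The groups did not overlap, with a log2 fold change of -1.39 (SE 0.39, limma p = 0.00596, exact permutation p = 0.1). Uqcr11, another small subunit, had 69.1, 32.7 and 65.0 with VEH and 26.0, 16.8 and 18.6 with CIII and a log2 fold change of -1.35 (SE 0.44, limma p = 0.0127, exact permutation p = 0.1). Uqcrb, a subunit near the ubiquinone site whose 3′ end shares 31.5% of its words with annotated copies, had 249, 137 and 138 with VEH and 109, 73.3 and 64.0 with CIII and a log2 fold change of -1.06 (SE 0.38, limma p = 0.0204, exact permutation p = 0.1). For both genes the CIII libraries again lay below the VEH libraries. Uqcrh, the hinge subunit beside cytochrome c1, had 235, 78.4 and 281 with VEH and 119.8, 94.9 and 148 with CIII, where VEH library 2 lay under all CIII libraries, and a log2 fold change of -0.54 (SE 0.49, limma p = 0.300, exact permutation p = 0.4).

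The 11 genes of complex IV were likewise all lower in F4/80hi Mϕ (median log2 fold change -0.98), 5 of them with an unadjusted limma p under 0.05. Cox7b, a small membrane subunit (ENSMUSG00000031231, chromosome X from 106015700 to 106022450), had 491, 248 and 296 normalized counts in the VEH libraries and 179.8, 153 and 74.4 in the CIII libraries. The highest CIII library stayed below the lowest VEH library, with a log2 fold change of -1.37 (SE 0.43, limma p = 0.0109, exact permutation p = 0.1). Cox5b, a zinc-binding subunit on the matrix side, had 177, 90.1 and 106 with VEH and 71.5, 50.5 and 41.0 with CIII and a log2 fold change of -1.16 (SE 0.39, limma p = 0.0155, exact permutation p = 0.1). Cox6b1, on the side facing cytochrome c, had 648, 229.9 and 361 with VEH and 237, 154 and 96.3 with CIII, and a log2 fold change of -1.31 (SE 0.47, limma p = 0.0219, exact permutation p = 0.2). Here CIII library 1 reached just above VEH library 2, so that the groups overlapped, and DESeq2 with the replicate block gave an adjusted p of 0.0146. Cox6c, another small subunit, had 1052, 417 and 637 with VEH and 417, 339 and 312 with CIII and a log2 fold change of -0.89 (SE 0.40, limma p = 0.0547, exact permutation p = 0.1).

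The ATP synthase had the lowest median of the complexes in F4/80hi Mϕ over all 6 libraries. All 16 genes were lower, with a median log2 fold change of -1.22, and 10 had an unadjusted limma p under 0.05. The order of the complexes depended on the libraries. Without VEH replicate 2 the medians were -1.28 for the ATP synthase, -1.35 for complex IV and -1.32 for complex III. Atp5k encodes subunit e of the membrane part, which takes part in the pairing of synthases (ENSMUSG00000050856, chromosome 5 from 108433244 to 108434448). It had 335, 532 and 414 normalized counts in the VEH libraries and 176, 185 and 111 in the CIII libraries. The lowest VEH library was well above the highest CIII library, with a log2 fold change of -1.44 (SE 0.35, limma p = 0.00254, exact permutation p = 0.1). Atp5mpl, a small proteolipid of the same membrane part (ENSMUSG00000021290, chromosome 12 from 111961375 to 111966977), had 360.3, 291 and 452 normalized counts in the VEH libraries and 162, 151 and 138 in the CIII libraries. The highest CIII library stayed well under the lowest VEH library, with a log2 fold change of -1.26 (SE 0.32, limma p = 0.00302, exact permutation p = 0.1). Atp5d, the delta subunit of the central stalk, had 124, 99.3 and 70.2 with VEH and 39.0, 44.5 and 35.0 with CIII and a log2 fold change of -1.26 (SE 0.36, limma p = 0.00630, exact permutation p = 0.1). Atp5g3, a gene of the c subunit that forms the rotating ring, had 1339, 495 and 824 with VEH and 574, 469 and 290.5 with CIII, with overlap between CIII library 1 and VEH library 2, and a log2 fold change of -0.93 (SE 0.45, limma p = 0.0692, exact permutation p = 0.2). Some of the members under 0.05 were followed through 21 alternatives, among them each fit without 1 library. Of those followed, Atp5k, Atp5mpl, Atp5d, Uqcr10, Cox7b, Sdhc, Ndufa12 and Ndufc1 kept an unadjusted p under 0.05 in each. The other members under 0.05, Ndufaf8 among them, were not followed in this way. DESeq2 with the replicate block gave Atp5k an adjusted p of 0.00281 and Atp5mpl one of 0.0107.

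**Figure D2:**
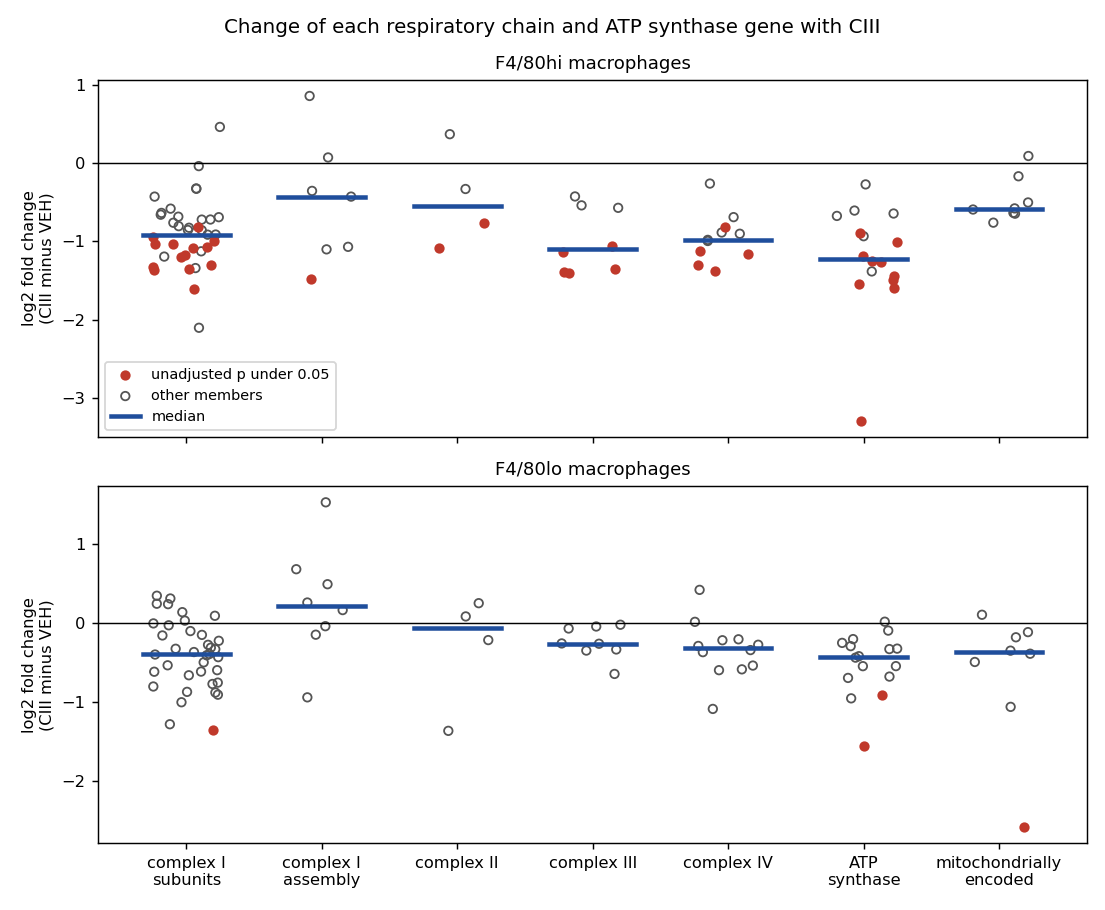
Log2 fold change (CIII minus VEH) of each member in F4/80hi (top) and F4/80lo Mϕ (bottom), by complex; a circle is a gene, filled where the unadjusted limma p is under 0.05, and a bar is the median. In F4/80hi Mϕ the medians of complexes I, III, IV and the ATP synthase lay between -1.22 and -0.91, and in F4/80lo Mϕ between -0.42 and -0.25.

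**Figure D3:**
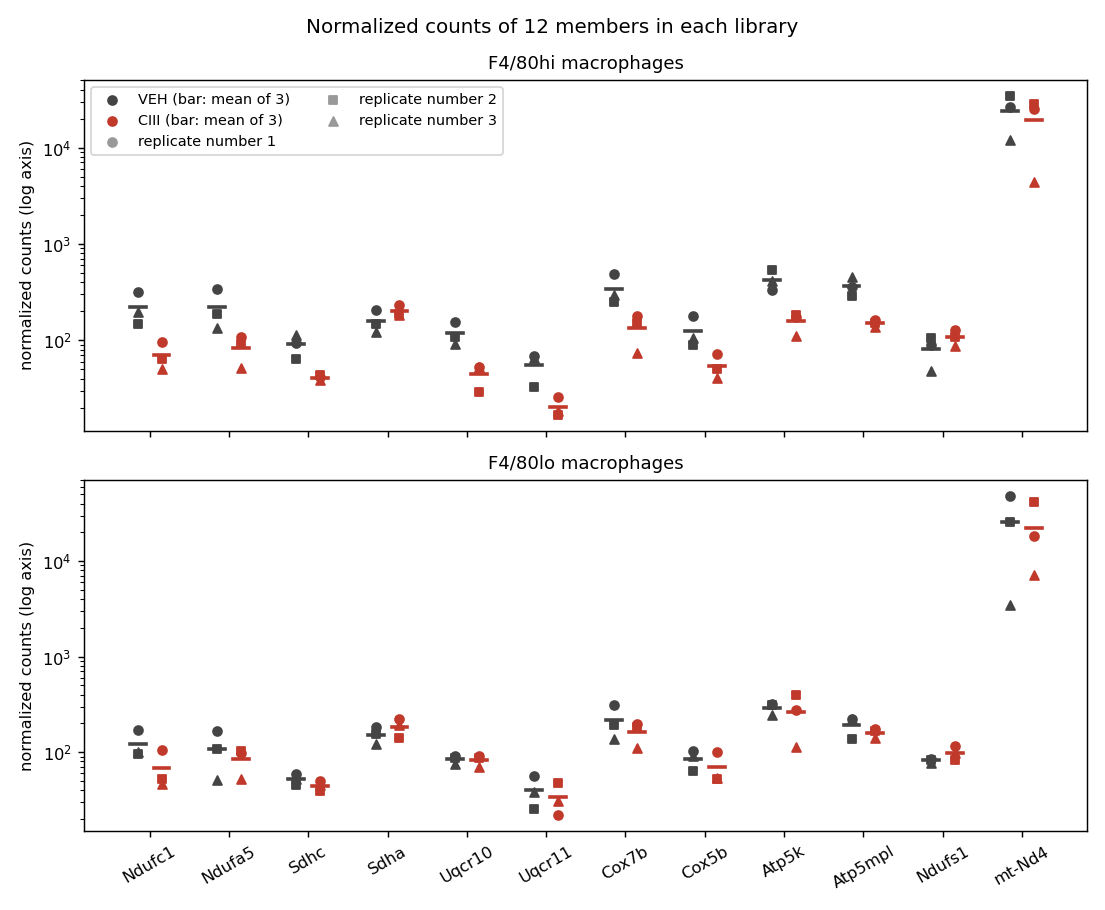
Normalized counts of 12 members (log axis) in F4/80hi (top) and F4/80lo Mϕ (bottom); a symbol is a library, its shape the replicate number, grey for VEH and red for CIII, and a bar is the mean of 3. Atp5k lay at 335 to 532 with VEH and 111 to 185 with CIII in F4/80hi Mϕ, whereas the values of Sdha and Ndufs1 overlapped.

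The 8 members encoded by the mitochondrial genome had no unadjusted limma p under 0.05 in F4/80hi Mϕ, and their median log2 fold change was -0.58 (7 of 8 lower). They took 7.68%, 10.2% and 5.31% of the reads in the VEH libraries and 7.71%, 8.47% and 2.20% in the CIII libraries. The libraries numbered 1 held nearly equal shares, and the lowest share was that of CIII library 3. Within the numbers 1, 2 and 3 the median log2 fold change was -0.07, -0.29 and -1.37, and it was 0.07 without CIII replicate 3, with 3 of 8 lower, and -0.15 in the libraries numbered 1 and 2 alone. The nuclear members, by contrast, had a median of -0.75 without CIII replicate 3. This difference between nuclear and mitochondrially encoded members was described and not tested.

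Complex I subunits make up most of the mitochondrially encoded members. mt-Nd4, a proton-pumping subunit, had 26104, 34522 and 11944 with VEH and 24998, 28312 and 4439 with CIII, and a log2 fold change of -0.59 (SE 0.91, limma p = 0.531, exact permutation p = 0.6). mt-Nd1, next to the ubiquinone site, had 17265, 17807 and 13371 with VEH and 16307, 15811 and 4165 with CIII, and a log2 fold change of -0.65 (SE 0.73, limma p = 0.400, exact permutation p = 0.5). Both genes were low in the libraries numbered 3, where the CIII library was the lowest of all. mt-Nd2 and mt-Nd5, also pumping subunits, had log2 fold changes of -0.63 and -0.58, and mt-Nd6 of -0.50 at 6.01 to 52.4 normalized counts. mt-Cytb, the heme-bearing core of complex III, had 17205, 23861 and 9212 with VEH and 16054, 18188 and 2666 with CIII, and a log2 fold change of -0.76 (SE 0.87, limma p = 0.403, exact permutation p = 0.6). It was lowest in the libraries numbered 3 too. mt-Co1, the catalytic core of complex IV, and mt-Nd3 had log2 fold changes of -0.17 and 0.09, but 95.1% and 97.8% of the words of their 3′ ends occur in annotated nuclear copies, which makes their values uncertain. mt-Co2, mt-Co3, mt-Atp6 and mt-Nd4l, each under the minimum level, shared 98.7% to 99.8% with such copies.

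**Figure D4:**
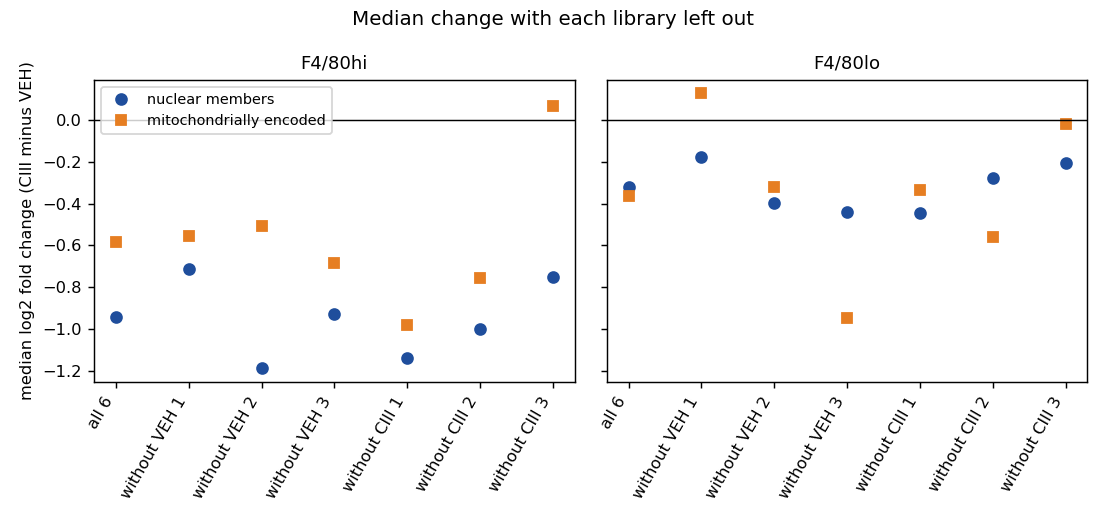
Median log2 fold change (CIII minus VEH) of nuclear members (circles) and of mitochondrially encoded members (squares) over all 6 libraries and with each library left out, in F4/80hi (left) and F4/80lo Mϕ (right). In F4/80hi Mϕ the nuclear median stayed between -1.19 and -0.71, whereas the mitochondrially encoded median ran from -0.98 to 0.07.

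In F4/80lo Mϕ the differences were smaller. Of the 85 nuclear members, 67 were lower with CIII (54.1% of all genes were), with a median log2 fold change of -0.32, and the median of all genes tested was -0.05. By complex the median was -0.39 for complex I, -0.06 for complex II, -0.25 for complex III, -0.31 for complex IV and -0.42 for the ATP synthase, while the assembly factors of complex I had a median of 0.22. In limma's test 0 members had an adjusted p under 0.05, the smallest being 0.9996, and edgeR and DESeq2 also gave 0, with 3 and 4 members at an unadjusted p under 0.05 (3.23% and 4.30%, against 2.67% and 2.76% of all genes). An unadjusted limma p under 0.05 was reached by 4 of the 93 members (4.30%, against 1.61% of all genes), each lower with CIII. By coding length the share of nuclear members was 9.52% up to 300 bases and 2.5% from 301 to 600 bases, near the 7.18% and 2.75% of other protein-coding genes of these lengths. In 10 members the CIII libraries lay below all VEH libraries (10.8%, against 4.92% of all genes). With the replicate block 9 members had an unadjusted p under 0.05 (9.68%, against 3.85% of all genes), and without VEH replicate 1 there were 0 (1.44% of all genes). In the libraries numbered 1 and 2 alone, 63 of the 85 nuclear members were lower, with a median of -0.34 (5639 of all 10718 genes were lower). An unadjusted p under 0.05 was then reached by 6 members (6.45%, against 4.73% of all genes).

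The share of reads on nuclear members was 1.20%, 0.891% and 0.630% in the VEH libraries of F4/80lo Mϕ and 0.928%, 0.705% and 0.614% in the CIII libraries. Each CIII library was below the VEH library of its number, but the groups overlapped. Atp5e, the epsilon subunit of the central stalk, had 309.5, 217 and 231 normalized counts in the VEH libraries and 168, 121 and 115 in the CIII libraries. The groups did not overlap, with a log2 fold change of -0.90 (SE 0.34, limma p = 0.0208, exact permutation p = 0.1). Atp5j, coupling factor 6 of the peripheral stalk, had 257, 208 and 55.3 with VEH and 44.7, 50.3 and 50.9 with CIII, where VEH library 3 was close to the CIII libraries, and a log2 fold change of -1.55 (SE 0.53, limma p = 0.0129, exact permutation p = 0.1). Ndufa4, named for complex I and later found in complex IV, had 86.1, 68.0 and 65.0 with VEH and 58.2, 36.6 and 9.95 with CIII and a log2 fold change of -1.34 (SE 0.57, limma p = 0.0387, exact permutation p = 0.1). The fourth was mt-Nd3, at 0 to 1.11 normalized counts with CIII and 1.67 to 19.8 with VEH, whose reads cannot be told from those of its nuclear copy over most of the 3′ end. This gene reached the minimum mean of 3 normalized counts through its VEH libraries alone, so its p is not read as support for a lower level.

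Next to the threshold in F4/80lo Mϕ were members of complex I, its assembly factors and the ATP synthase. Ndufs8, an iron-sulfur subunit of complex I, had 31.4, 21.8 and 27.3 with VEH and 19.2, 4.57 and 12.2 with CIII, and a log2 fold change of -1.28 (SE 0.60, limma p = 0.0570, exact permutation p = 0.1). Ndufc1 had 169.9, 95.0 and 99.6 with VEH and 106, 52.5 and 46.4 with CIII, and a log2 fold change of -0.87 (SE 0.43, limma p = 0.0657, exact permutation p = 0.3). Atp5h, subunit d of the peripheral stalk, whose 3′ end shares 52.1% of its words with an annotated copy, had 72.1, 80.9 and 65.0 with VEH and 57.5, 38.8 and 40.9 with CIII, and a log2 fold change of -0.67 (SE 0.37, limma p = 0.0971, exact permutation p = 0.1). The assembly factor Ndufaf6, named here after its values were seen, was on the other side, with 5.82, 1.28 and 7.33 with VEH and 9.22, 20.6 and 13.3 with CIII and a log2 fold change of 1.53 (SE 0.76, limma p = 0.0688, exact permutation p = 0.1). Of the genes placed in complexes II, III and IV by their symbols, Sdhd, Uqcrq and Cox7a2 had the smallest p, with log2 fold changes of -1.36, -0.64 and -0.58 and none under 0.05 in limma's test. With the replicate block, Cox7a2 and Cox6b1 (-0.59) had an unadjusted p under 0.05 in limma but not in edgeR. Sdhd and Uqcrq had one in edgeR but not in limma. DESeq2 with the block gave no gene of these complexes an unadjusted p under 0.05. Uqcrc2 (-0.34) and Cox7c (-0.53) share 100% and 55.2% of the words of their 3′ ends with other annotated genes, which makes their values uncertain. The complex I subunit with the highest level, Ndufa2, had a log2 fold change of -0.15.

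Among the 85 nuclear members of F4/80lo Mϕ, 18 had a higher mean log2 level with CIII, none of them with an unadjusted limma p under 0.05. Of complex I these were 8 subunits, namely Ndufs3 (log2 fold change 0.35, with 45.3% of its words in an annotated copy), Ndufab1 (0.32), Ndufs1 (0.25), Ndufa7 (0.24), Ndufb11 (0.14), Ndufa9 (0.10), Ndufa6 (0.04) and Ndufb8, which was level at 230, 122 and 160.2 normalized counts with VEH and 196, 146 and 157 with CIII. Of complex IV, Cox6a1 (0.02) and Cox6b2 (0.43) were higher, and of the ATP synthase Atp5s (0.02) alone. Of the 8 assembly factors of complex I, 5 were higher and Ndufaf2 (-0.94), Ndufaf4 (-0.03) and Ndufaf8 (-0.14) lower. Ndufab1 is the acyl carrier protein of mitochondria, and it had 26.8, 27.0 and 32.3 with VEH and 28.4, 36.6 and 44.2 with CIII. Its groups overlapped. Of complex II, Sdhb (0.09) and Sdha were higher, Sdha with 185, 154 and 121 with VEH and 221, 139 and 191 with CIII. The mitochondrially encoded members took 12.9%, 8.11% and 1.51% of the reads with VEH and 5.48%, 9.97% and 2.57% with CIII, so that they were lower with CIII in number 1 and higher in numbers 2 and 3. Their median log2 fold change was -0.36 over all libraries, 0.13 without VEH replicate 1 and -0.55 in the libraries numbered 1 and 2 alone.

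The responses of the subpopulations were compared in one limma fit over the 12 libraries. The fit and the exact permutation took the F4/80lo and F4/80hi libraries as independent, though both may have been sorted from the same mice. Where mice were shared, the p-values for the difference do not hold as given. Of the 91 members measured in both, 73 were lower with CIII in both (80.2%, against 29.4% of all genes), and 78 had the more negative log2 fold change in F4/80hi Mϕ (85.7%, against 44.1%). The median difference (F4/80hi minus F4/80lo) was -0.65 over the nuclear members, 73 of 83 (88.0%) being more negative in F4/80hi Mϕ, and -0.23 over the mitochondrially encoded members. No member had an adjusted p under 0.05 for the difference, and 3 had an unadjusted limma p under 0.05 (3.30%, against 0.713% of all genes), all more negative in F4/80hi Mϕ. These were Uqcr10 (difference -1.35, SE 0.48, limma p = 0.0136, exact permutation p = 0.075), Ndufaf8 (-1.34, SE 0.54, limma p = 0.0277, exact permutation p = 0.075) and Atp5mpl (-1.02, SE 0.42, limma p = 0.0295, exact permutation p = 0.105). In F4/80lo Mϕ, Uqcr10 had 91.9, 87.3 and 75.9 with VEH and 91.5, 86.8 and 70.8 with CIII, Ndufaf8 had 41.9, 56.5 and 40.6 with VEH and 55.3, 52.5 and 24.3 with CIII, and Atp5mpl had 222, 139 and 222 with VEH and 174, 167 and 142 with CIII. For each of the 3 genes the groups overlapped there. An exact permutation p under 0.05 for the difference, unadjusted, was reached by 2 of the 91 members (2.2%, against 2.16% of all genes), a share at the background. Both were outside limma's 3 and are named after their values were seen. They were Ndufab1 (difference -0.74, SE 0.50, limma p = 0.161, exact permutation p = 0.025) and Sdhb (-0.85, SE 0.41, limma p = 0.0560, exact permutation p = 0.03). With the replicate block 13 members had an unadjusted p under 0.05 for the difference, each more negative in F4/80hi Mϕ (14.3%, against 2.39% of all genes), and without the libraries numbered 1 there were 0 (0.673% of all genes).

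Short genes were lower with CIII in F4/80hi Mϕ whether or not they were members, and most members are short. The median coding length was 432 bases for the nuclear members and 1386 for the other protein-coding genes. Up to 300 bases, the median log2 fold change was -1.26 over 21 nuclear members and -0.57 over 179 other genes. From 301 to 600 bases it was -0.94 over 39 members and -0.43 over 1059 others. At 601 to 1200 bases the medians were -0.76 (13 members) and -0.09 (2756 others), and at 1201 to 2400 bases -0.59 (10 members) and 0.14 (3503 others). In each of the 4 bins the members were thus lower than other genes of like length, and both became less negative with length. The nuclear subunits that were higher, Ndufs1 and Sdha, had the longest coding sequences of the nuclear members, at 2181 and 1992 bases. Across genes, Spearman's rho between coding length and log2 fold change was 0.57 over the 83 nuclear members and 0.38 over the 9574 others, which share the same 6 libraries and are not independent. In F4/80lo Mϕ the values were 0.30 and 0.08. With the length of the whole transcript in place of the coding length, rho was 0.39 and 0.38 in F4/80hi Mϕ and 0.15 and 0.08 in F4/80lo Mϕ. The medians of members and of others in the 4 bins of F4/80lo Mϕ, from the shortest, were -0.36 and -0.22, -0.33 and -0.17, -0.06 and -0.05, and -0.20 and 0.0015, so that they were nearly level in the third. The part of transcript length in the members' values was not tested.

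**Figure D5:**
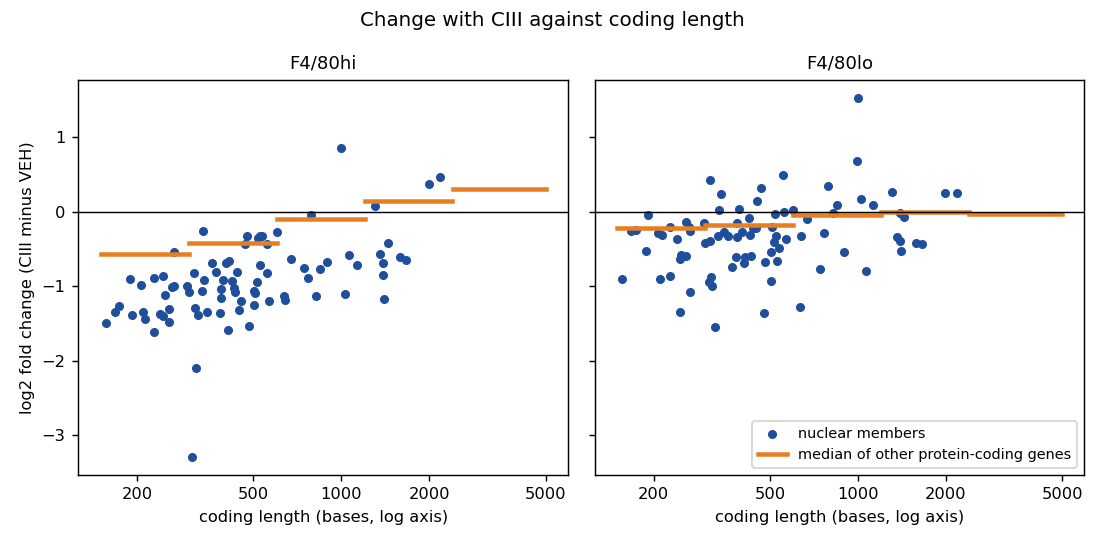
Log2 fold change (CIII minus VEH) of nuclear members (points) against coding length in bases (log axis), in F4/80hi (left) and F4/80lo Mϕ (right); an orange line is the median of other protein-coding genes in a length bin, with the first and last bins cut off at the edges. In F4/80hi Mϕ most points lay below the line of their bin.

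Other genes of the pathway were taken from lists. Of 9 electron carriers and subunits outside the symbols above, 7 were lower in F4/80hi Mϕ (median log2 fold change -0.73). Among them was Cox4i1, the complex IV subunit left out by the symbols, which had 275, 155 and 141 normalized counts with VEH and 176, 91.3 and 73.3 with CIII and a log2 fold change of -0.78 (SE 0.43, limma p = 0.102, exact permutation p = 0.3). Its groups overlapped. Another was Cycs, the electron carrier cytochrome c, chosen after its values were seen as the only one with an unadjusted p under 0.05. It had 62.5, 47.0 and 35.6 normalized counts with VEH and 24.5, 22.8 and 27.4 with CIII, without overlap, and a log2 fold change of -0.90 (SE 0.39, limma p = 0.0445, exact permutation p = 0.1). The assembly factors of complexes III to V were lower in 17 of 25 (median -0.26, with an unadjusted p under 0.05 for the copper chaperone Cox17 alone), those of complex II in 4 of 4 (median -0.90, 0 under 0.05), and the enzymes of the tricarboxylic acid cycle in 11 of 13 (median -0.27, the malate dehydrogenase Mdh2 under 0.05). The regulators of mitochondrial gene expression, among them Nrf1, Gabpa and Tfam, were lower in 8 of 15 (median -0.01, the RNA-binding Slirp under 0.05). Cox17, Mdh2 and Slirp, named after their values were seen, had log2 fold changes of -0.95, -0.91 and -1.08. In F4/80lo Mϕ the medians of these lists, in the same order, were -0.67, -0.11, -0.27, -0.29 and 0.11, with 0 genes at an unadjusted p under 0.05. The coactivator gene Ppargc1a was at 0 in all libraries of both subpopulations. No gene of these lists had an adjusted p under 0.05.

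Markers of other cells differed between treatments as well in F4/80hi Mϕ. The 5 genes of monocyte-derived, MHCII-bearing Mϕ (Ccr2, H2-Aa, H2-Ab1, H2-Eb1 and Cd74) were all higher with CIII, H2-Aa and H2-Ab1 with an unadjusted limma p under 0.05, and summed to 729 to 3107 reads per 1000000 with VEH and 1488 to 14269 with CIII. The 4 resident markers all had a log2 fold change below 0 (median -0.43), with Gata6 nearly level. None of the 4 had an unadjusted limma p under 0.05, and they summed to 128 to 2225 with VEH and 240 to 1092 with CIII. With the replicate block in limma's fit, all 5 MHCII-bearing markers were higher at this unadjusted threshold. Of the resident markers 1, Alox15 (log2 fold change -0.95), was then lower at it. The general marker Mertk, which was also used in the sort, was higher with CIII, at 174, 246 and 187 normalized counts with VEH and 325, 386 and 315 with CIII (log2 fold change 0.77, SE 0.31, limma p = 0.0362, exact permutation p = 0.1). Neutrophil markers summed to 27.5 to 83.8 with VEH and 8.12 to 14.9 with CIII, with Camp, Ly6g and Ngp at 0. Nearly all of this was S100a8, which was lower with CIII (log2 fold change -2.00, SE 0.56, limma p = 0.00568, exact permutation p = 0.1), while S100a9 was at 0 in 4 of the 6 libraries. Markers of B cells reached at most 57.5 reads per 1000000, of T and NK cells 26.6, of dendritic cells 21.7, of eosinophils and mast cells 4.34 and of mesothelial cells 0.952. In F4/80lo Mϕ the MHCII-bearing list was also higher in 5 of 5, at 4332 to 14589 with VEH and 15313 to 27628 with CIII, H2-Eb1 with an unadjusted p under 0.05. With the replicate block, 3 of these 5 genes were higher at this unadjusted threshold. T and NK cell markers summed to 4.78 to 9.89 with VEH and 17.4 to 30.5 with CIII, without overlap, and Trbc2 among them had an unadjusted limma p under 0.05, as had the dendritic cell marker Btla, both higher with CIII. Dendritic cell markers summed to 5.61 to 249.97 with VEH and 38.3 to 169 with CIII, B cell markers to 18.3 to 111 and 27.8 to 164, and neutrophil markers to 8.47 to 28.0 and 6.15 to 8.11. The part of these markers in the members' values was not tested.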

How the data were processed

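The libraries were 3′ mRNA libraries (QuantSeq with UMI) of sorted F4/80lo and F4/80hi Mϕ, 3 per treatment and subpopulation. The authors trimmed reads with Bbduk, mapped them to GRCm38 with STAR, collapsed UMI duplicates and counted per gene with HTSeq. The deposited signal values are normalized counts, divided by a DESeq2 size factor per library and set separately in each table. Each value (100%, within 0.01 reads) was a whole multiple of what 1 read is worth in its library, and whole reads were recovered from this. A 3′ read count does not scale with transcript length. A count of 0 allows up to 3 reads, or 0.885 to 7.03 per 1000000, for counting error only.

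Symbols, coordinates and coding lengths came from GENCODE on GRCm38. Genes that averaged at least 3 normalized counts over the 6 libraries of a table were tested on log2 of the value plus a pseudocount of 1 with limma 3.58.1 (R 4.3.3; mean-variance trend, two-sided, Benjamini-Hochberg over all genes, threshold 0.05). The pseudocount makes the differences of genes with few reads smaller. Exact permutation tests (two-sided) compared mean log2 levels, and for the difference between subpopulations treatments were permuted within each. edgeR 4.0.16 and DESeq2 1.42.0 on the recovered reads were alternatives. The fits were run on simulated counts whose genes varied independently, with no library set apart. This checks the code and does not show how the fits behave with the features of these libraries. Figures used matplotlib 3.10.9.

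Genes named were, per complex and subpopulation, the 3 smallest p and the highest mean, all mitochondrially encoded members, and those opposite to their complex's median; other names were chosen after their values were seen. Members and lists were chosen with earlier results of these data known.

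Across genes the deviations from the treatment means correlated at 0.121, 0.238 and 0.504 for the numbers 1, 2 and 3 in F4/80lo and at 0.216, 0.412 and 0.639 in F4/80hi Mϕ. Libraries numbered 1 and 2 also correlated across numbers, at 0.0972 and 0.171 in F4/80lo and at 0.152 and 0.285 in F4/80hi Mϕ, so that number 3 was set apart (-0.525 to -0.163 with the others) and numbers 1 and 2 were not set apart from each other. The pairing rests on these numbers and deviations, and it was used as a block in an alternative fit.

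Reads were compared with other transcripts by the 75-base words of the last 500 bases of each member.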

Additional observations from a re-analysis of the deposited data

How the results depend on the processing

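The direction of the nuclear medians did not change under any alternative run. The median log2 fold change of the nuclear members lay between -1.19 and -0.71 in F4/80hi Mϕ and between -0.45 and -0.18 in F4/80lo Mϕ with each library left out. That of the mitochondrially encoded members changed sign in both, with ranges of -0.98 to 0.07 and -0.95 to 0.13. In F4/80hi Mϕ the number of members with an unadjusted p under 0.05, 37, became 57 with the replicate block, 10 to 45 with 1 library left out and 16 in replicates 1 and 2 alone, an alternative chosen after seeing the data. The number with an adjusted p under 0.05, 0, became 14 in DESeq2 with the replicate block and stayed at 0 in each other alternative. In F4/80lo Mϕ the 4 members became 9 with the replicate block, 10 in edgeR with that block (10.8%, against 6.17% of all genes), 12 with array quality weights (12.9%, near the 11.5% of all genes) and 0 to 7 with 1 library left out, the 7 (7.53%, near the 6.24% of all genes) without VEH replicate 3. For the difference between the responses the 3 members became 13 with the replicate block, 10 with array quality weights (10.99%, against 4.92% of all genes) and 0 to 6 without the libraries of 1 number, and with the weights the mitochondrially encoded median turned from -0.23 to 0.58. Scaling each library to the same total over genes put the median over all tested genes at 0.15 instead of 0.05 in F4/80hi Mϕ and at 0.02 instead of -0.05 in F4/80lo Mϕ. The nuclear medians were then -0.84 and -0.25. Size factors computed without the members, also chosen after seeing the data, gave -0.95 and -0.32. The causes were not tested. Libraries of 426624 to 3389448 reads limit the precision of genes with few reads.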
